A study of Mus musculus with 9 samples.

Results

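The genes of the cytosolic ribosomal proteins were followed in 3 groups of sorted mouse bone marrow cells. They were taken by name: every gene whose symbol in the probe annotation begins with Rpl or Rps and a digit, together with Rplp0, Rplp1, Rplp2 and Rpsa, without the Rps6k kinases and without symbols marked as pseudogenes by "-ps". The rule used no measured value. It was applied to probe sets annotated with a single gene, and 30 further ribosomal protein symbols that appear only on probe sets shared with another gene are not members. It found 48 of the 12393 genes measured: 20 proteins of the small (40S) subunit, 22 of the large (60S) subunit and 6 paralogues, genes named as relatives of a subunit protein (Rpl3l, Rpl7l1, Rpl22l1, Rpl39l, Rps4l and Rps27l). Each gene stood for its brightest probe set, the group of short oligonucleotides that Affymetrix arrays carry for a transcript.

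Ribosomal proteins fold with the ribosomal RNAs into the particles that translate every messenger RNA. Their messengers are among the most abundant of a cell, and most begin with a short run of pyrimidines, the terminal oligopyrimidine or TOP motif, through which the mTOR pathway controls their translation. Haematopoietic stem cells are known for a low and tightly held rate of protein synthesis, and loss of a single copy of certain ribosomal protein genes causes failure of red cell formation in humans (Diamond-Blackfan anaemia and the 5q- syndrome). Runx1 is a DNA-binding transcription factor of blood-forming cells, and the RUNX1 fragment used in this study keeps the DNA-binding Runt domain.

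KSL cells, which are c-Kit+, Sca-1+, lineage- and IL7Ra- and hold the stem cells and early progenitors of the blood, were sorted from the marrow of C57BL/6 mice, and 3 biological replicates per group were hybridised to 1 array each. The control mice were Runx1 floxed/floxed and MxCre-/-. The Runx1KO mice were Runx1 floxed/floxed and MxCre+/-, so that the Mx promoter, which answers to interferon, drives Cre in marrow and in other tissues, and both of these groups had been given poly IC 3 months earlier. The third group had been transduced with a retroviral vector for RUNX1(41-214), residues 41 to 214 of RUNX1, and was sampled 4 months after transplantation. The labels name no poly IC for it and do not say whether its Runx1 alleles were floxed, and none of the 9 arrays holds transplanted cells with an empty vector. In every value of that group, the fragment therefore cannot be told apart from transduction, transplantation, the absence of poly IC or the later sampling. The labels do not say whether animals were pooled, and the p-values measure the spread between these arrays.

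The arrays of all groups correlated closely, with r from 0.976 to 0.992 within groups and from 0.968 to 0.986 between them. Runx1 itself, in log2(signal + 16), read 10.73, 9.88 and 10.58 in control, 11.20, 11.73 and 11.40 in Runx1KO and 10.82, 10.95 and 11.06 with RUNX1(41-214) on the brightest of its 5 probe sets. The Runx1KO arrays were thus the highest, and whether these probes lie in the deleted part of the gene is not known here, so that they do not check the labels. Of the marker genes of KSL cells, 6 of 8 were measured and 5 of these were brighter than the median gene, Kit and Cd34 included, while Ly6a, which encodes Sca-1, was not analysed here. Markers of IL7R-bearing lymphoid cells (3 of 3 measured) summed to signals of 4343 to 8058 in control, 3199 to 7030 in Runx1KO and 911 to 1588 with RUNX1(41-214). The 5 megakaryocyte markers summed to 2829 to 4197, 4465 to 5002 and 6297 to 8027 in the same order. Of these, Itga2b was called against control in Runx1KO (1.29, limma adjusted p = 0.00426) and with the fragment (2.02, adjusted p = 2.8e-05). Vwf stood at -0.72 with the fragment. Of the lymphoid markers, Il7r (-3.69, adjusted p = 0.0015) and Dntt (-1.93, adjusted p = 0.000713) were called with it. So were Kit (0.57, adjusted p = 0.0415), Thy1 (-1.07, adjusted p = 0.0465) and the erythroid Alas2 (2.20, adjusted p = 0.0102). The other measured erythroid markers, Hba-a1, Epor and Klf1, stood at 0.05, -0.22 and -0.82 and were not called. The part of these marker differences in the values below was not tested.

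The ribosomal protein genes filled the top of the signal range. Of the 48, 37 lay above the 95th percentile of mean brightness over all genes and 5 lay below the median (Rpl3l, Rpl39, Rpl39l, Rps27 and Rps4l). Brightness depends on the probes as well as on the messenger, so these ranks give no order of messenger amounts. Many of the probe sets can bind related sequences: 15 of the 48 carried the suffix _x, 17 carried _a and 16 carried none. A further 102 probe sets named a ribosomal protein gene together with another gene, mostly pseudogenes, and they were kept out of the gene values.

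The start sites of these genes are shown first because the TOP motif sits there and is the feature by which their messengers are best known. RefSeq promoter entries (build GRCm38.p6) were matched for 42 of the 48, in 50 windows. There were no entries for Rpl7, Rpl8, Rps14, Rps20, Rps29 and Rps4l. A run of 8 or more C or T within 15 bases of the annotated start was found in 19 of the 50 windows (38.0%), against 12% of 32851 windows of all genes. Capitals below mark the part of a run within 15 bases of the start, and the run of Rpl27a goes on past its capitals. The following windows hold the 30 bases before the start and the first 30 bases from it. They are Rps10 (chr17:27635215-27635274, minus strand), Rpl35 (chr2:39005102-39005161, minus strand), Rpl38 (chr11:114668550-114668609, plus strand), the upstream start of Rps24 (chr14:24490648-24490707, plus strand), Rpl27a (chr7:109519165-109519224, plus strand) and Rpl7a (chr2:26910777-26910836, plus strand):

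Rps10: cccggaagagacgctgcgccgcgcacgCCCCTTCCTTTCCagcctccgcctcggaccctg
Rpl35: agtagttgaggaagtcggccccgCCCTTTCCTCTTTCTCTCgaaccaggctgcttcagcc
Rpl38: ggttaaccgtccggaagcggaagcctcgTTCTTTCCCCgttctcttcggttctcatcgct
Rps24: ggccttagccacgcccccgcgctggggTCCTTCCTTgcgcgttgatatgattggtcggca
Rpl27a: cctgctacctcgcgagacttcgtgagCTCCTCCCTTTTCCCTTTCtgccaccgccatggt
Rpl7a: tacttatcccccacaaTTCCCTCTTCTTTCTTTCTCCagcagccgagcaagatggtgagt

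In Rps10 the run of 13 bases spans the start, and the run of Rpl7a, at 21 bases, was the longest. The windows of Rpl27 (chr11:101442215-101442274, plus strand) and Rps4x (chrX:102189362-102189421, minus strand) hold no run at the annotated start and are given for comparison:

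Rpl27: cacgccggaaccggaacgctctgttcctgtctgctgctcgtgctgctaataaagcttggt
Rps4x: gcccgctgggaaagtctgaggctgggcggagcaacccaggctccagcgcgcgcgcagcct

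An annotated start that lies a few bases from the true one moves the run, so the share is a description of the annotation. Because RUNX1 binds DNA, the same 300-base promoters (250 bases before the start and 50 after it) were also read for the letters of the RUNX core, TGTGGT or TGCGGT, on both strands. They were found in 8 of the 50 windows (16%), against 22.4% of all 32851. The matches nearest to a start were those of Rps28 (chr17:33824551-33824580, minus strand), Rps25 (chr9:44407713-44407742, plus strand) and Rps2 (chr17:24720011-24720040, plus strand), printed with the core in capitals as read on the gene's strand:

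Rps28: ctgggtaccgcgTGCGGTctcgcgagagcg
Rps25: tagcgaggctgcTGTGGTctacacgactct
Rps2: aagacgcagccaACCACAgcctgcgggtgc

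The core of Rps25 begins 12 bases after the start, that of Rps28 6 bases before it and that of Rps2, which lies on the opposite strand, 40 bases before it. A match of these letters is not a binding site.

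Across the 3 groups, the gene that stood apart was Rps4l. The RefSeq gene table places it on chromosome 6 and annotates it as a transcribed pseudogene, a copy related to Rps4x, whose product is a protein of the small subunit. Its log2 signals were 6.68, 7.74 and 7.06 in control, 6.42, 6.12 and 5.23 in Runx1KO, and 5.07, 4.13 and 4.31 with RUNX1(41-214). All control arrays lay above all Runx1KO arrays, and these lay above all RUNX1(41-214) arrays. As deposited, before any normalization, the signals were 90.1, 202 and 124 in control, 72.5, 54.2 and 20.8 in Runx1KO and 16.5, 1.61 and 3.99 with the fragment, and no probe set of the array was listed at 0. The last 3 values put the probe set above 22.7%, 2.7% and 6.2% of the probe sets of its array, where signals carry little information on the amount.

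Rps4l fell with RUNX1(41-214) against control with a log2 difference of -2.66 (SE 0.36, limma adjusted p = 0.00137), to 0.159 of the control level on the scale of signal + 16. It was the only member past the adjusted threshold of 0.05 in any comparison. In Runx1KO the difference from control was -1.24 (SE 0.36, adjusted p = 0.271), and between RUNX1(41-214) and Runx1KO it was -1.42 (SE 0.36, adjusted p = 0.102). The last of these passed the threshold once Runx1KO array 3 was left out (-1.76, adjusted p = 0.0460). The fall against control passed under every alternative that kept the gene. The size depends on the number added before the logarithm: the log2 difference was -4.38 with an offset of 1 and -1.64 with an offset of 50. In such bulk samples, fewer cells that transcribe a gene and less RNA per cell cannot be told apart.

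Rps4x, the gene that Rps4l resembles, gave 13.02, 12.99 and 13.07 in control, 13.00, 13.02 and 13.12 in Runx1KO and 13.01, 13.00 and 13.05 with RUNX1(41-214). The 3 groups overlapped, and the difference between the fragment and control was -0.01 with a 95% interval from -0.14 to 0.13. The genes next to Rps4l in RefSeq order did not pass the threshold either. With RUNX1(41-214) against control, Ergic2 on one side stood at 0.38 (SE 0.23, adjusted p = 0.490) and Ipo8 on the other at -0.02 (SE 0.19, adjusted p = 0.979). Further out, Ccdc91 stood at -0.62 (SE 0.19, adjusted p = 0.118), Caprin2 at -0.17, Sinhcaf at 0.21 and Klhl42 at 0.46. In Runx1KO against control, Ccdc91 stood at -0.58 (SE 0.19, adjusted p = 0.398).

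**Figure D1:**
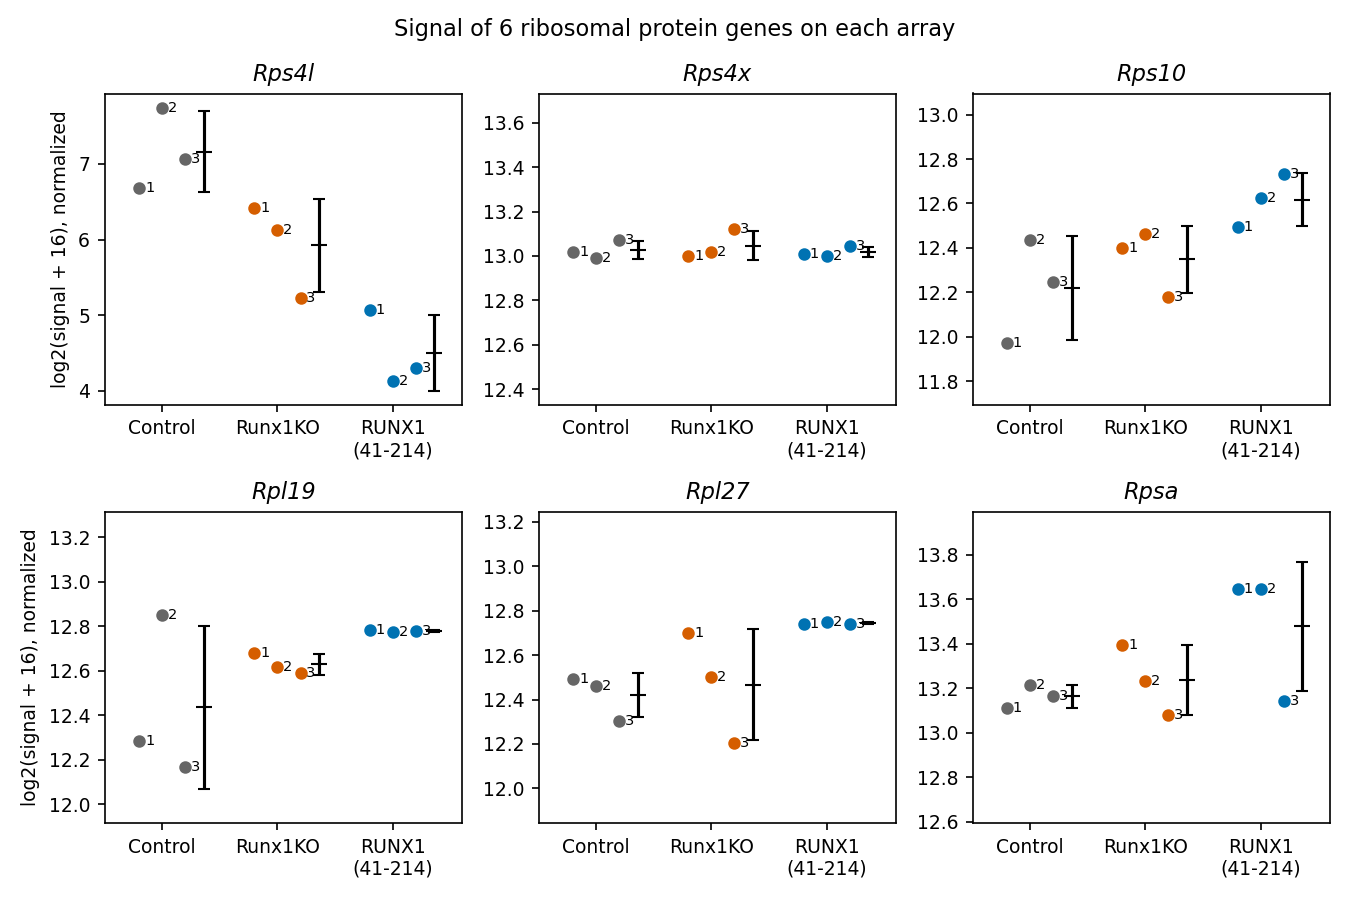
Normalized log2(signal + 16) of 6 ribosomal protein genes on each of the 9 arrays (points, numbered by replicate), with the group mean and SD (n = 3) in black beside them. The axis of Rps4l spans more than that of the other 5 genes, which share 1 span of 1.4; Rps4l steps down from control to RUNX1(41-214) while Rps4x stays near 13.0, and Rpsa holds 2 high arrays in the third group.

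The first comparison asks what loss of Runx1 does to these genes in KSL cells. None of the 48 passed the threshold in Runx1KO against control, where 0.347% of all genes did. By limma's unadjusted p under 0.05 there was 1, Rps4l, beside 7.22% of all genes. The arrays of Rps4l were also the only ones that did not overlap with control: 1 member on the lower side and 0 on the higher, where 5.20% and 5.34% of all genes had such a pattern. As many members lay above control (24 of 48) as below it, beside 49.2% of all genes above, and the median difference was 0.001 for the members and -0.004 for all genes. Outside Rps4l, the largest positive difference was that of Rpl19, at 0.19 (SE 0.14), and the largest negative one that of Rpl27a, at -0.49 (SE 0.37). Next on the higher side came Rpl11, Rps26, Rpl3l and Rps10, at 0.13 to 0.14, and on the lower side Rpl12 at -0.26, Rpl39 at -0.22 and Rpl14 at -0.21, each with a 95% interval that held 0.

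The members were measured more tightly than most genes, with a median SE of 0.10 against 0.20 over all genes. Over the 1240 genes above the 90th percentile of brightness it was 0.13. For 40 of the 48, the 95% interval of the difference between Runx1KO and control lay within a fold of 1.5 in either direction, and for 25 within 1.25. Of the 38 members that bright, 37 and 25 did, beside 1029 and 296 of the 1240 genes. Over all 12393 genes, 5765 and 527 did. Each interval holds for the brightest probe set of a gene, and other probe sets of some members gave other differences, as set out below. Rps19, the gene most often mutated in Diamond-Blackfan anaemia, had an interval from -0.23 to 0.11. Rps14, the gene of the 5q- syndrome, had one from -0.13 to 0.21. Rps6, the substrate of the S6 kinases, had a wider one, from -0.43 to 0.30. The interval of Rpl12 ran from -1.67 to 1.16, since its arrays spread from 6.86 to 9.02 within these groups, so that little can be said of this gene.

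The second comparison sets RUNX1(41-214) against control. Here 1 of 48 members passed, Rps4l, where 4.28% of all genes did and 2.56% did so downward. By unadjusted p, 8 of the 48 were under 0.05, beside 15.5% of all genes, and 6 of the 8 were higher. Most members lay slightly above control: 34 of 48 (70.8%), beside 52.6% of all genes, with a median difference of 0.04 beside 0.02. With arrays centred on their medians in place of quantile normalization, the median of all genes was 0.12 and that of the members 0.18. There 44 of 48 members lay above control, beside 67.1% of all genes, and 35 lay above the median of all genes. With quantile normalization, 28 of the 38 members above the 90th percentile of brightness lay above control, beside 47.4% of the 1240 genes that bright. The arrays of the 2 groups did not overlap for 6 members on the higher side and 5 on the lower side, where 10% and 10.2% of all genes had such a pattern.

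Of the small subunit, 14 of the 20 proteins lay above control and none passed. Rps10, which sits near the entry of the mRNA channel, read 11.97, 12.44 and 12.25 in control, 12.40, 12.46 and 12.18 in Runx1KO and 12.49, 12.62 and 12.73 with RUNX1(41-214). Its 3 fragment arrays lay above the other 6. The difference from control was 0.40 (SE 0.12, adjusted p = 0.114), a ratio of 1.32. It passed without Control array 2 (0.50, adjusted p = 0.0355) and with arrays centred on their medians (0.56, adjusted p = 0.0262).

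Rps15, which is needed for export of the small subunit from the nucleus, spread widely within each group. It read 11.68, 12.38 and 11.97 in control, 12.24, 11.84 and 11.49 in Runx1KO and 12.35, 12.18 and 12.49 with the fragment, and the groups overlapped (0.33, SE 0.20, adjusted p = 0.485). Rps25, a protein used by certain internal ribosome entry sites, had the largest positive difference of the subunit, 0.50, but also an SE of 0.37. Its control arrays alone ran from 8.08 to 9.42. Rps24 and Rps26, both of the Diamond-Blackfan list, did not overlap with control (differences of 0.16, SE 0.08, and 0.20, SE 0.09).

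Rpsa, also known as the laminin receptor and a stable part of the small subunit, gave different values with and without normalization. It read 13.11, 13.21 and 13.17 in control, 13.39, 13.23 and 13.08 in Runx1KO and 13.65, 13.65 and 13.14 with RUNX1(41-214). The first 2 fragment arrays were the high ones, and on both of them this probe set was the brightest of all 22626, a place to which quantile normalization gives the same value on every array. As deposited, the signals of the third group were 10326, 10168 and 8784, and those of control were 9098, 10340 and 8904, so that the groups overlapped. The difference from control was 0.32 (SE 0.12, adjusted p = 0.230) after normalization and 0.05 (adjusted p = 0.880) in the values as deposited, and -0.06 with the mean of its probe sets. Leaving out fragment array 3 gave 0.45 and an adjusted p of 0.0240.

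For 6 core members of the small subunit the data were tight in all groups. Rps2, Rps3, Rps3a1, Rps7, Rps18 and Rps28, proteins of the head, the body and the mRNA channel, differed from control by -0.08 to 0.05 with SEs of 0.06 to 0.07. Rps2 read 13.09, 13.05 and 13.08 in control and 12.98, 13.02 and 12.98 with the fragment, and its arrays did not overlap (-0.08, SE 0.06, adjusted p = 0.599). Rps9, which helps keep decoding accurate, stood at -0.11 (SE 0.09, adjusted p = 0.652), and Rps20 and Rps29, both of the head, at 0.00 and 0.01.

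Of the large subunit, 17 of the 22 proteins lay above control and none passed. Rpl19, which reaches across the interface to the small subunit, read 12.28, 12.85 and 12.17 in control, 12.68, 12.62 and 12.59 in Runx1KO and 12.78, 12.77 and 12.78 with RUNX1(41-214). The third group was nearly constant and lay above all Runx1KO arrays, but Control array 2 was the highest of the 9. The difference from control was 0.34 (SE 0.14, adjusted p = 0.249), and without Control array 2 it was 0.55 (adjusted p = 0.00218). Array weights, which give each array a weight by its residual spread, also put it past the threshold (0.42, adjusted p = 0.0493).

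Rpl27, of the Diamond-Blackfan list, read 12.49, 12.46 and 12.31 in control, 12.70, 12.50 and 12.20 in Runx1KO and 12.74, 12.75 and 12.74 with the fragment. Its 3 fragment arrays were the highest of the 9 (0.32, SE 0.11, adjusted p = 0.162). Rpl38, known for its part in the translation of Hox messengers, read 12.77, 12.84 and 12.85 in control, 12.92, 12.81 and 12.90 in Runx1KO and 12.98, 12.98 and 13.00 with the fragment. These 3 arrays were again the highest, by a small margin (0.17, SE 0.06, adjusted p = 0.212). Rpl35 lay at 0.25 (SE 0.11, adjusted p = 0.291), with Control array 2 inside the range of the fragment arrays.

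On the lower side, Rpl27a differed by -0.39, but its control arrays ran from 8.90 to 10.54 and the SE was 0.37. Rpl6 and Rpl8 had all 3 fragment arrays below the control arrays, with differences of -0.07 and -0.06 (adjusted p = 0.679 and 0.749). Rpl4, Rpl7, Rpl7a, Rpl10a and Rpl13a differed by 0.03 to 0.11. Rpl14, Rpl37 and Rpl41 stood at 0.03, 0.04 and 0.13 with SEs of 0.17, 0.11 and 0.16. The stalk, which recruits the elongation factors, is covered by Rplp0 (0.03, SE 0.06) and Rplp2 (0.07, SE 0.07), and the arrays of Rplp2 did not overlap (control 13.08, 13.09 and 12.98, fragment 13.13, 13.11 and 13.12). Rplp1 was not analysed here.

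The Diamond-Blackfan and 5q- list, of which 12 genes were measured, holds genes whose loss of 1 copy causes anaemia. Of the 12, 11 lay above control with RUNX1(41-214), beside 52.6% of all genes, with a median of 0.16, and none passed the adjusted threshold. The 1 below was Rps7, at -0.05 (SE 0.06). The 4 with arrays above all control arrays were Rps10, Rps24, Rps26 and Rpl27, beside 10% of all genes with such a pattern. Without Control array 2 and Runx1KO array 3, the 2 arrays with the highest Gapdh 3′ to 5′ ratio, 9 of the 12 lay above control with a median of 0.22. Rpl11, which with the 5S ribosomal RNA binds and inhibits Mdm2, stood at 0.16 (SE 0.11, adjusted p = 0.573), and its control arrays ran from 12.06 to 12.54. Its partners in that complex were not analysed here.

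The paralogues split. Rps27l, a p53 target, was at 0.34 (SE 0.18, adjusted p = 0.437), and its parent Rps27 at 0.20 (SE 0.22). Rpl7l1 read 10.62, 10.77 and 10.75 in control, 10.64, 10.54 and 10.54 in Runx1KO and 10.48, 10.45 and 10.39 with the fragment. The fragment arrays were the lowest of the 9 (-0.27, SE 0.12, adjusted p = 0.305), while its namesake Rpl7 stood at 0.09. Rpl22l1 and Rpl22, a pair in which Rpl22 is known to repress its paralogue, lay at -0.08 and -0.06. Rpl3l, a gene of striated muscle, and Rpl39l, a gene of the testis, stood at 0.20 (SE 0.23) and 0.14 (SE 0.23).

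**Figure D2:**
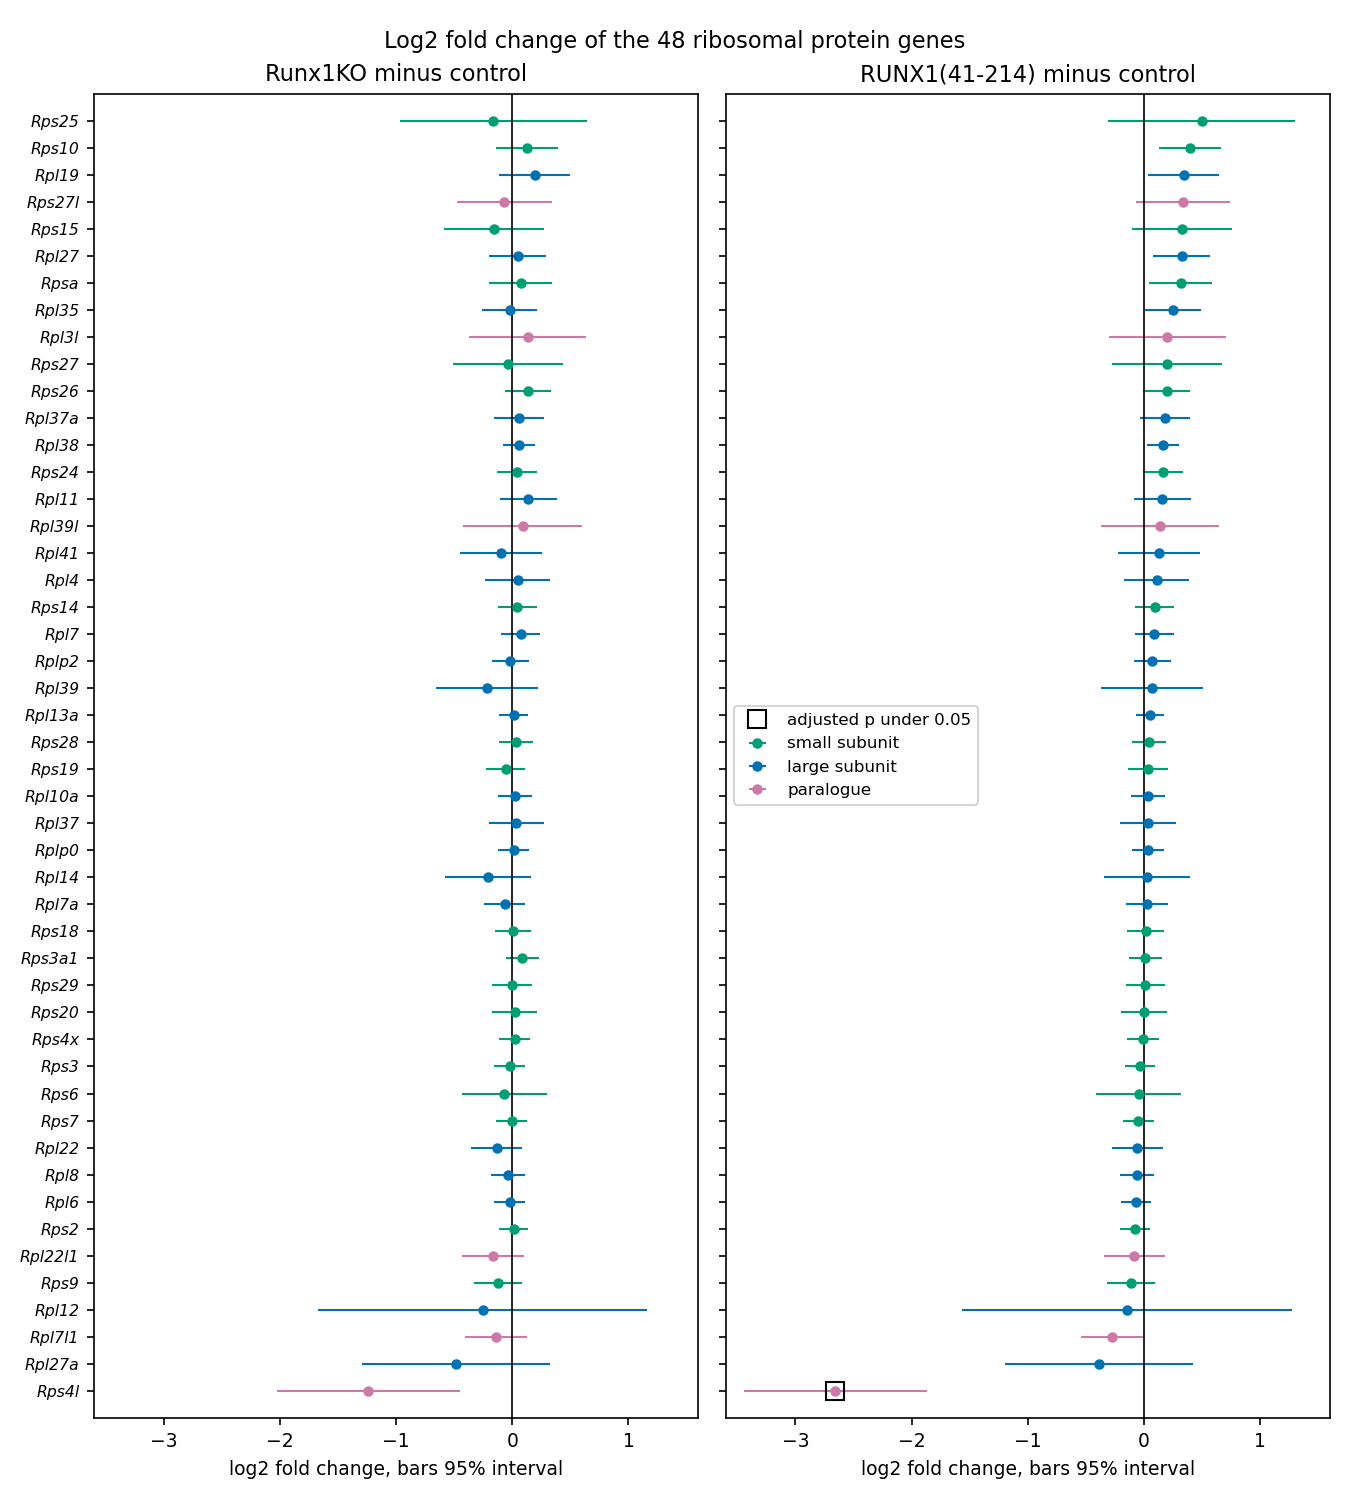
Log2 fold change of each of the 48 genes with its 95% interval, for Runx1KO (left) and RUNX1(41-214) (right) against the same 3 control arrays, coloured by subunit and ordered by the right panel. A black square marks the single gene past the adjusted threshold of 0.05, Rps4l; the right panel has 34 of 48 points above 0 and the left 24 of 48.

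The third comparison sets the fragment against the deletion, with arrays that the other comparisons also use. None of the 48 passed, where 1.36% of all genes did, and 5 were under 0.05 by limma's unadjusted p, beside 10.6% of all genes. Of the 48, 38 (79.2%) were higher with RUNX1(41-214), beside 53% of all genes, with a median of 0.06 beside 0.02. The large subunit gave 20 of 22 and the small subunit 14 of 20. The largest difference was that of Rps25, at 0.66 (SE 0.37, adjusted p = 0.595), then those of Rps15, at 0.49 (SE 0.20, adjusted p = 0.387), and Rps27l, at 0.40 (SE 0.18, adjusted p = 0.471). Rpl39, at the tunnel exit of the large subunit, stood at 0.29 on a dim probe set (SE 0.20, adjusted p = 0.691). Arrays did not overlap on the higher side for 7 members, Rpl19, Rpl27, Rpl35, Rpl38, Rps10, Rps19 and Rps24, where 9.67% of all genes had this pattern. They did not overlap on the lower side for Rpl7l1, Rps2 and Rps4l, where 9.13% had it.

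The difference measured for a member varied with the probe set that stood for it. There were 100 probe sets with a single ribosomal protein symbol, and 19 genes had at least 2 of them brighter than 10 in log2. In RUNX1(41-214) against control, the dimmest of these probe sets lay further from 0 than the brightest in 15 of the 19 genes, and the median absolute difference was 0.19 for the dimmest and 0.11 for the brightest. In Runx1KO against control it did so in 11 of 19, with medians of 0.05 for both. The dimmest probe set had a larger SE than the brightest in some genes, such as Rpl37a and Rps10, and a smaller one in others, such as Rpl41. The part of this spread in the gaps between probe sets of a gene was not tested.

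Rpl37a had the widest gap of this kind. Its brightest probe set gave 0.18, while the other read 10.28, 11.13 and 10.48 in control, 11.24, 10.72 and 10.08 in Runx1KO and 11.85, 11.90 and 11.52 with RUNX1(41-214). On this dimmer probe set all 3 fragment arrays were the highest (1.12, SE 0.28, adjusted p = 0.0608 over all 22626 probe sets). With the dimmest probe set taken for every gene, 2 members passed against control, Rps4l and Rpl37a (adjusted p = 0.0455). In Rps10 the 5 probe sets above 10 gave 0.22 to 0.77, all above 0, and a dimmer sixth, with a mean of 7.21 and the only one without a suffix, gave -0.30 (SE 0.49). In Rpl35 the 5 bright probe sets gave 0.25 to 0.46. The probe sets of Rps18 above 10 gave 0.02, 0.07 and 0.19, and those of Rps28 gave 0.04 to 0.05.

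**Figure D3:**
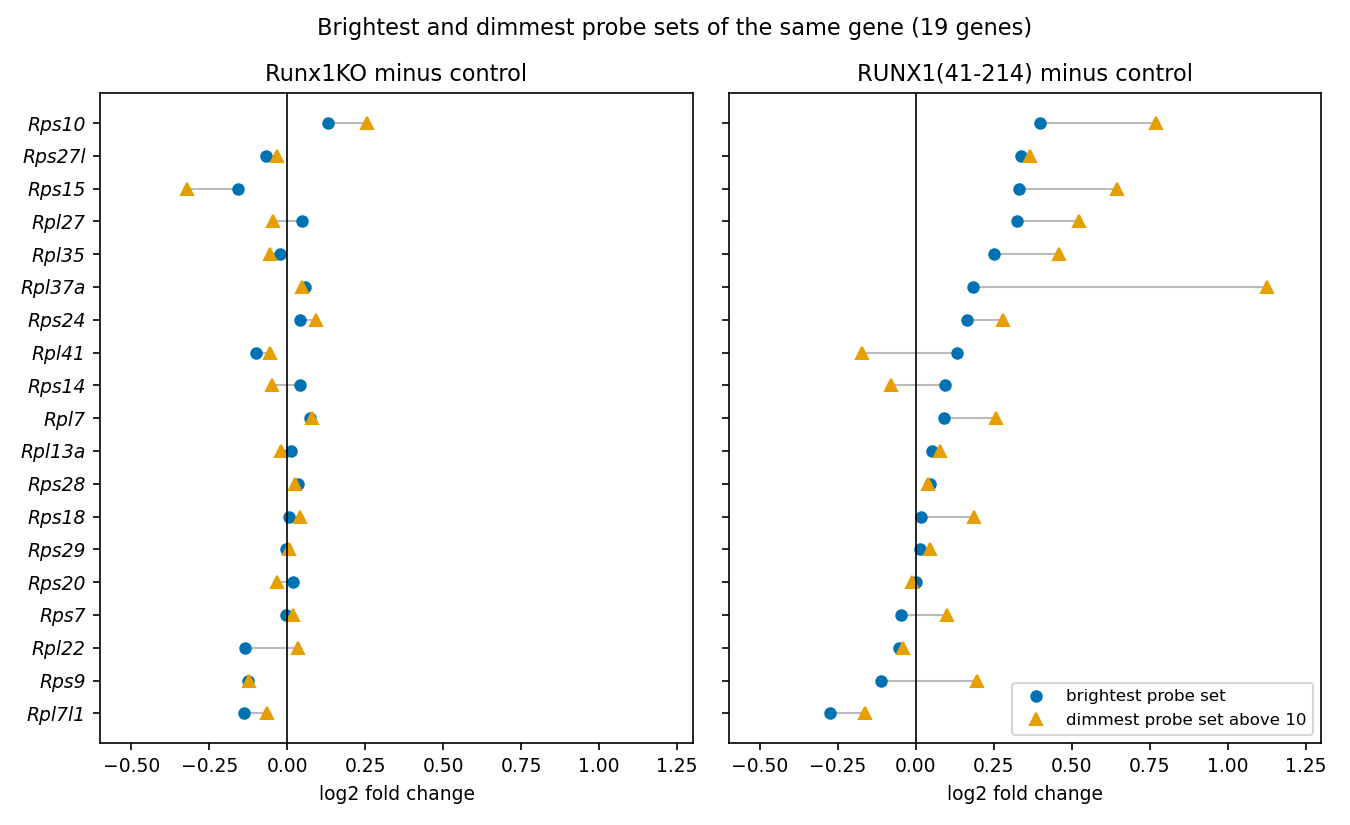
Log2 fold change of the brightest probe set (circles) and of the dimmest probe set brighter than 10 in log2 (triangles) of the 19 genes with at least 2 such probe sets, for both comparisons with control. In the right panel the triangles of Rpl37a, Rps10, Rps15, Rpl27 and Rpl35 lie to the right of their circles.

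The 102 probe sets that share a ribosomal protein symbol with another gene cannot be assigned to 1 gene. None passed in any comparison, where 0.137%, 3.05% and 1.08% of all probe sets did for Runx1KO, for RUNX1(41-214) and for the fragment against the deletion. In RUNX1(41-214) against control 68 of the 102 lay above 0, with a median of 0.07, beside 53.1% of all probe sets. In Runx1KO against control 49 did, beside 49.7%, with a median of -0.002.

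Seen array by array, the members moved little as a group. For each array the median over the 48 genes of the difference from the control mean was -0.034, 0.043 and 0.019 in control, 0.030, -0.008 and -0.005 in Runx1KO and 0.063, 0.037 and 0.062 with RUNX1(41-214). The fragment group was at the upper end, and its lowest array lay below the highest control array. The median level of the 48 genes, which rests on the few genes at the middle of the list, was 12.68 to 12.70 with the fragment, above the 12.51 to 12.55 of control and the 12.44 to 12.61 of Runx1KO. The ratio of Gapdh signal from the 3′ to the 5′ probe set, a sign of RNA length after 2 rounds of labelling, was uneven: its log2 was 1.17, 1.85 and 1.25 in control, 0.99, 1.27 and 2.13 in Runx1KO and 1.29, 1.14 and 0.98 with the fragment. The highest ratios were those of Control array 2 and Runx1KO array 3. Without these 2 arrays, 32 of 48 members lay above control in the third group, with a median of 0.07, and 4 passed (Rps4l, Rpl19, Rps10 and Rpl27), where 761 of the 12393 genes did in the same fit. The part of RNA length in these values was otherwise not tested.

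**Figure D4:**
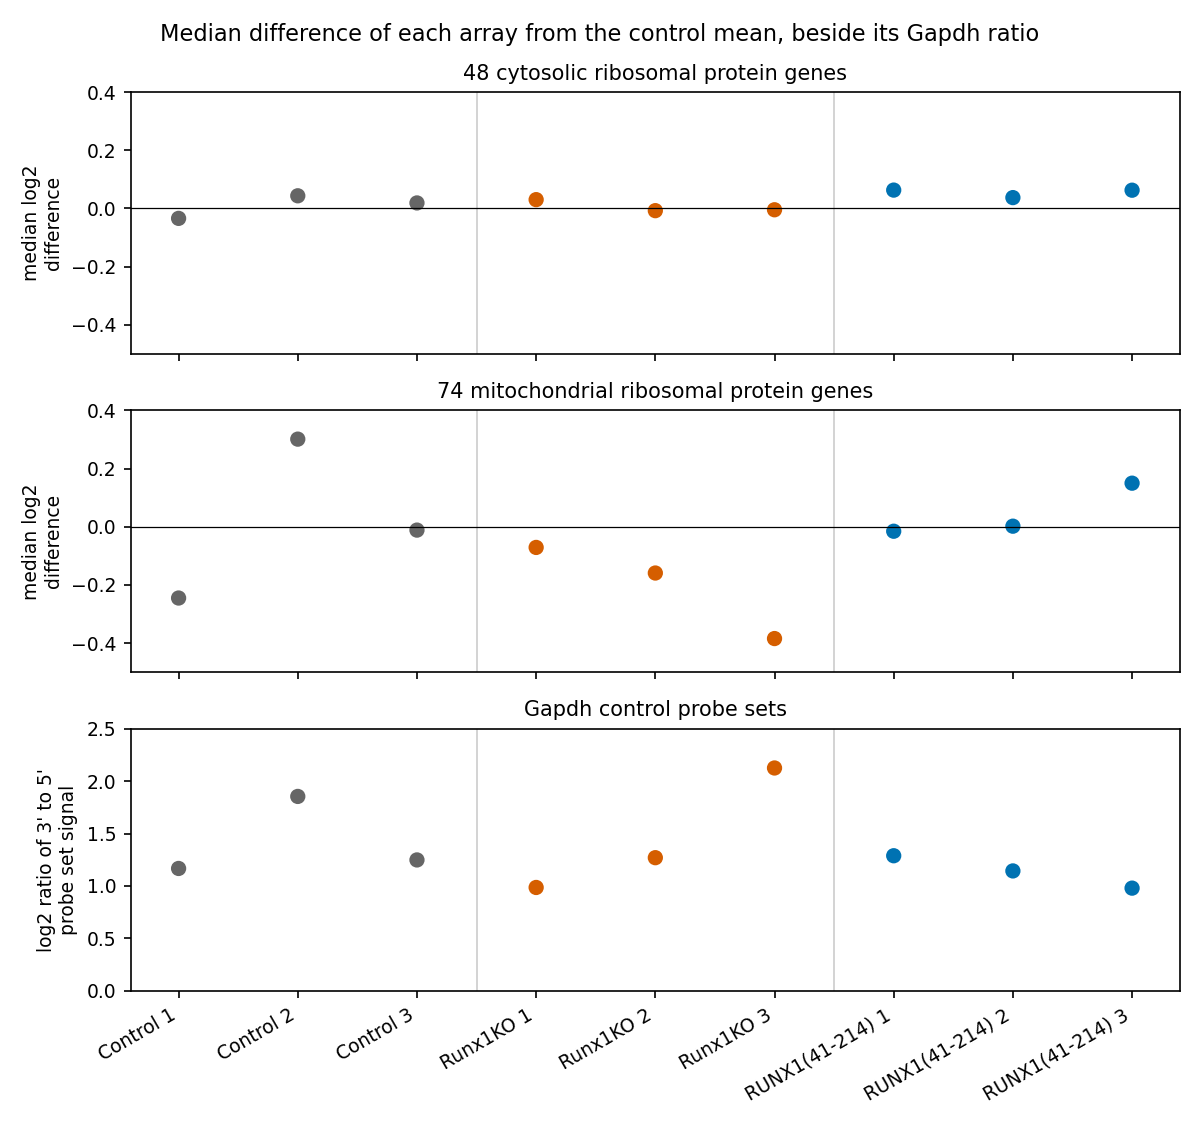
For each array, the median over 48 cytosolic (top) and 74 mitochondrial (middle) ribosomal protein genes of the log2 difference from the control mean, and the log2 ratio of 3′ to 5′ Gapdh signal (bottom). The cytosolic medians stay between -0.034 and 0.063, while the mitochondrial ones run from -0.38 to 0.30 and are highest on Control array 2.

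The ribosome of the mitochondrion is built from other proteins, encoded by the Mrpl and Mrps genes. Of the 74 measured, 70 lay below control in Runx1KO, beside 50.8% of all genes, with a median difference of -0.23, and none passed. Their array medians differed from the control mean by -0.24, 0.30 and -0.01 in control itself, by -0.07, -0.16 and -0.38 in Runx1KO and by -0.015, 0.002 and 0.15 with RUNX1(41-214). The control arrays thus spread over more than the difference, and without Control array 2 and Runx1KO array 3 the median was 0.01, with 40 of the 74 above control. With RUNX1(41-214) against control, 43 of 74 lay above 0 (median 0.03) and none passed, and without those 2 arrays 54 did (median 0.18) and 5 passed, beside 761 of all 12393 genes. With RUNX1(41-214) against Runx1KO, 61 of the 74 lay higher (82.4%, median 0.25), beside 53% of all genes, and none passed. Mrps25 was among the lowest of the 74 in both comparisons with control, at -0.72 (SE 0.19, adjusted p = 0.193) in Runx1KO and -0.61 (adjusted p = 0.114) with the fragment.

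Other genes of the translation machinery gave few calls. Fau, which encodes a further small subunit protein fused to a ubiquitin-like part, was at 0.29 with RUNX1(41-214) against control (SE 0.13, adjusted p = 0.305), and its 3 fragment arrays (12.46, 12.45 and 12.48) lay above the other 6. Of 24 measured translation factors and other TOP genes, none passed in any comparison, and 10 of 24 lay above control with the fragment (median -0.03). Without Control array 2, 4 of them passed in that comparison. Leaving out a single array gave 305 to 611 calls there over all 12393 genes, and whether the list exceeds that share was not tested. Vim, the intermediate filament gene whose messenger has a TOP motif, came nearest to the threshold, at 0.38 (SE 0.10, adjusted p = 0.0690), and it passed under 4 alternatives, among them the fit without Control array 2 (0.47, adjusted p = 0.0241). Of 13 measured chaperones and assembly factors, such as Grwd1 and Tsr2, none passed, and 10 lay below control in each of the 2 comparisons with it (47.4% of all genes did so with the fragment), with medians of -0.13 in Runx1KO and -0.14 with RUNX1(41-214). The lowest p among them was that of Nap1l4, a histone chaperone, at -0.29 in Runx1KO (SE 0.11, adjusted p = 0.488).

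In the mTOR list, 1 of 18 genes passed, beside 4.28% of all genes with the fragment against control and 1.36% against Runx1KO. Without Control array 2, 3 passed against control, where leaving out a single array gave 305 to 611 calls over all 12393 genes. Whether the list exceeds that share was not tested, so the count is not read as a result about the list. Deptor, an inhibitor that binds mTOR, read 8.73, 8.31 and 8.24 in control, 9.16, 9.90 and 9.35 in Runx1KO and 10.61, 10.65 and 10.34 with RUNX1(41-214). The 3 groups did not overlap. Deptor rose by 2.11 against control (SE 0.22, adjusted p = 0.000286) and by 1.07 against Runx1KO (adjusted p = 0.0420), while Runx1KO differed from control by 1.04 (adjusted p = 0.0896). The rise against Runx1KO missed the threshold under 10 of 22 alternatives: it was 0.51 with the mean of the gene's probe sets (adjusted p = 0.317), and 0.91 to 1.16 without Control array 3, Runx1KO array 1 or 3, or any 1 of the fragment arrays (adjusted p = 0.0520 to 0.208). With all arrays, the other 17 genes, among them Mtor, Rictor, Tsc1, Tsc2 and Eif4ebp1, did not pass.

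In the list of the Mdm2 and p53 response to ribosomal stress, 1 of 10 genes passed, in the fragment against Runx1KO, where 1.36% of all genes did. Plk2, a p53 target kinase, was at 5.57, 5.52 and 5.87 in control, 6.14, 6.96 and 6.94 in Runx1KO and 5.02, 4.94 and 4.80 with RUNX1(41-214). The Runx1KO arrays were the highest and the fragment arrays the lowest, with no overlap, and Plk2 fell by 1.76 in the fragment against Runx1KO (SE 0.23, adjusted p = 0.00308). Its probe set is dim, and the difference was -2.51 with an offset of 1 and -1.10 with an offset of 50. Against control it stood at 1.02 in Runx1KO (adjusted p = 0.108, and 0.0332 without Runx1KO array 1) and -0.74 with the fragment (adjusted p = 0.120, and 0.0458 without Runx1KO array 1). Mdm2, Cdkn1a, Ccng1 and the other genes of the list did not pass.

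The start-site letters shown above can be set beside these differences. The 19 members with a pyrimidine run had a median difference of 0.07 with RUNX1(41-214) against control, and the 23 without one had 0.04, with 15 above 0 in each set. Against Runx1KO, all 19 with a run lay above 0 (median 0.10), and of those without one 16 of 23 did (median 0.02). In Runx1KO against control the medians were -0.02 and 0.01. Rpl7a, with the longest run, stood at 0.03 against control, Rps10 at 0.40 and Rpl27a at -0.39. Rpl27, without a run at its annotated start, stood at 0.32. Of the genes printed with a RUNX core, Rps28 lay at 0.05, Rps25 at 0.50 and Rps2 at -0.08, so that these letters went with no common direction.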

How the data were processed

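Total RNA was labelled by the Affymetrix two-cycle procedure, per the labels' protocols. The deposited values are signal intensities per probe set on a linear scale. Neither the summarisation method nor a scaling step is given in the sources used here. Values were taken as log2(signal + 16), which understates the change of dim genes, and were quantile normalized, because array medians spanned 0.211, above a limit of 0.2. Of 22626 probe sets, 20380 had 1 gene symbol, 691 several and 1555 none, and only the first were used for genes. A mean per group was fitted with limma 3.58.1 (R 4.3.3) to all 9 arrays, with 6 residual and 5.60 prior degrees of freedom, two-sided, Benjamini-Hochberg over 12393 genes, threshold 0.05. Replicate numbers were not taken to pair the arrays.

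The members and all lists were chosen with earlier results of these data known. Members named are those past the threshold, the 5 largest rises and falls per comparison, paralogues with their parents, members of the short lists (5S complex, stalk, up to 4 of the Diamond-Blackfan list), and genes whose probe sets differed most; of other lists, every called gene, or else the 2 lowest p-values. Other members were named after their values were seen. The procedure was tested on simulated data. Alternatives covered scaling, offset, probe set choice, dim genes, arrays fitted, weights, variance trend, replicate block and each array left out.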

Additional observations from a re-analysis of the deposited data

How the results depend on the processing

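The number of members past the threshold with RUNX1(41-214) against control was 1, and it was 2 with arrays centred on their medians, 2 with array weights, 2 with the dimmest probe set above 10, 4 without the 2 arrays with the highest Gapdh ratio and 0 without dim genes, which drops Rps4l. Leaving out 1 array gave 1 to 3. Against Runx1KO the number was 0, and it was 1 (Rps4l) with array weights and 1 without the high-ratio arrays, and 0 to 1 with 1 array left out. In Runx1KO against control it was 0 throughout. The dimmest probe set and the omission of the high-ratio arrays were chosen after seeing the data. Median centring moved the median of all genes to 0.12 with RUNX1(41-214) against control and that of the members to 0.18, and against Runx1KO it moved them to 0.11 and 0.16. Relative to all genes the members stood at 0.06 and 0.05. With probe sets without suffix (24 members) the median in Runx1KO against control was -0.10; the cause was not tested.

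Over all genes, the count in Runx1KO against control was 43, and 9 with only the 2 groups compared, which has fewer arrays, and 18 to 50 with 1 array left out. With RUNX1(41-214) against control it was 531, and 262 without dim genes, which tests 6196 genes, and 305 to 611 with 1 array left out. Against Runx1KO it was 168, and 77 without dim genes, 371 with array weights and 76 to 207 with 1 array left out. Median centring changed the split with RUNX1(41-214) from 214 higher and 317 lower to 304 and 280.

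Same-numbered arrays of different groups had correlations of their deviations from -0.17 to 0.42, and differently numbered ones from -0.47 to 0.26. The highest were those of Control 3 with Runx1KO 3 (0.42) and of Control 2 with Runx1KO 2 (0.41). The labels name no pairing, and whether the numbers stand for one was not settled, so the main fit did not pair the arrays. With a replicate block the members' counts were 0, 1 and 0 in the 3 comparisons, as without it, and all genes gave 48, 539 and 171, while Deptor against Runx1KO went to an adjusted p of 0.0554. No result past the threshold, with all arrays or under an alternative, changed sign. Some below it did: with RUNX1(41-214) against control, Rps10 went to -0.30 with probe sets without suffix, Rpsa to -0.06 with the mean of probe sets, and the median of the Mdm2 and p53 list from -0.29 to 0.08 without dim genes. Of the single genes' results, 13 gained a call under at least 1 alternative and 1, Deptor against Runx1KO, lost it, under 10.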

Other observations

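Among the 100 probe sets with 1 ribosomal protein symbol, 74 lay above control with RUNX1(41-214) (median 0.09), and 48 did in Runx1KO (median -0.01), beside 53.1% and 49.7% of all probe sets. Rps20, whose brightest probe set differed from control by 0.00 with the fragment, had another probe set at 0.84. Rps9 had probe sets from -0.44 to 0.20 and Rpsa had a second, dim one at -0.45 (SE 0.30). Precision rests on 3 arrays per group and on the brightest probe set of each gene. The 95% interval against control lay within a fold of 1.5 for 40 of 48 members in Runx1KO and for 36 with RUNX1(41-214). Of the 1240 genes above the 90th percentile of brightness, 1029 and 959 had such an interval.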
